A study of Homo sapiens with 32 samples.

Results

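The hairpin S2sh7 against SMARCA2 was compared with the control hairpin shLuc, which targets luciferase, in H1299 cells that expressed ATPase dead SMARCA2 from a cDNA. The 6 arrays, 3 with S2sh7 and 3 with shLuc, were taken by their labelled line, hairpin and cDNA out of 32 in the series. H1299 is a human lung carcinoma line known to lack functional SMARCA4, and all 6 samples were stable, untreated cultures carrying the ATPase dead cDNA beside the cells' own SMARCA2. Per the labels, S2sh7 is directed at the part of SMARCA2 that encodes its ATPase domain. The labels do not say whether the cDNA escapes the hairpin, what drives it, or whether the lines are clones. The same pair of hairpins was also used in H1299 cells with GFP, wild-type SMARCA2 (WT) or bromodomain mutant SMARCA2 (BRD) in place of the ATPase dead cDNA, again with 3 arrays per group. It was used once more in A549, another lung carcinoma line, with ATPase dead SMARCA4 and 1 array per group. The comparison asks how much of the hairpin's effect was left when the added SMARCA2 could not hydrolyse ATP. The labels call the replicates biological but give no separate culture or infection for each, so the p-values speak of the spread among these arrays, which may be technical.

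SMARCA2 and SMARCA4 are the alternative motor subunits of the SWI/SNF complexes, which use ATP to slide or evict nucleosomes and so open regulatory DNA. The bromodomain lets the protein dock on acetylated histones, whereas the ATPase domain does the work. In cells without SMARCA4, SMARCA2 is the only motor left to these complexes.

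The arrays gave 1 intensity per probe set on a linear scale, and all changes below are log2 fold changes, S2sh7 over shLuc, from limma with Benjamini-Hochberg adjustment over 14695 genes. A gene was called at an adjusted p under 0.05. Array medians lay between 26.4 and 27.2 with S2sh7 and between 26.9 and 27.0 with shLuc. Log2 values correlated at 0.9976 to 0.9983 within the S2sh7 group, at 0.9988 within the shLuc group and at 0.9945 to 0.9953 between the groups, so no array stood apart from its group. VIM, which encodes vimentin, read 13951 to 14385 over the 6 arrays, and the epithelial genes CDH1 and EPCAM stayed under 7.6 on every one. The epithelial keratin genes KRT8 and KRT18 were bright instead, at 1060 to 1677 and 5705 to 7810. Precision is limited by having 3 arrays a group, and in such bulk samples fewer cells expressing a gene and less RNA per cell cannot be told apart.

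The hairpin's target was lower in every S2sh7 array. SMARCA2 probe set 217707_x_at read 41.1, 36.5 and 36.6 with S2sh7 and 86.4, 81.5 and 83.1 with shLuc. The groups were far apart, and the mean of 38.1 ± 2.65 with S2sh7 was 45.5% of the 83.7 ± 2.51 with shLuc (SD, n = 3 each, log2 -1.14, SE 0.103, adjusted p = 9.73e-08 over 32893 probe sets). Probe sets 206542_s_at and 206544_x_at fell to 41.7% of the control in both cases. Probe set 212257_s_at was the one that the cDNAs raised most, and it read 56.8, 62.5 and 50.9 with S2sh7 against 99.2, 116 and 112 with shLuc (log2 -0.95, SE 0.161, adjusted p = 2.08e-04). Its mean of 56.7 with S2sh7 and ATPase dead SMARCA2 was above the 25.7 with S2sh7 and GFP. With shLuc the means were 109 with ATPase dead SMARCA2 and 42.6 with GFP, so the gap to GFP was smaller with S2sh7. Whether the hairpin also lowered the transcript of the cDNA was not tested. Probe set 212258_s_at read 30.9 ± 4.41 with S2sh7 and 29.4 ± 1.93 with shLuc and was not called (adjusted p = 0.784). SMARCA4, the paralog, read 113 ± 6.94 with S2sh7 and 147 ± 10.0 with shLuc in its brightest probe set, 208794_s_at (log2 -0.37, SE 0.067, adjusted p = 3.84e-04). The SMARCA4 probe sets, 213720_s_at at -0.40 and 215714_s_at at -0.25, also fell, and the other 4 SMARCA4 probe sets that were tested were not called.

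**Figure D1:**
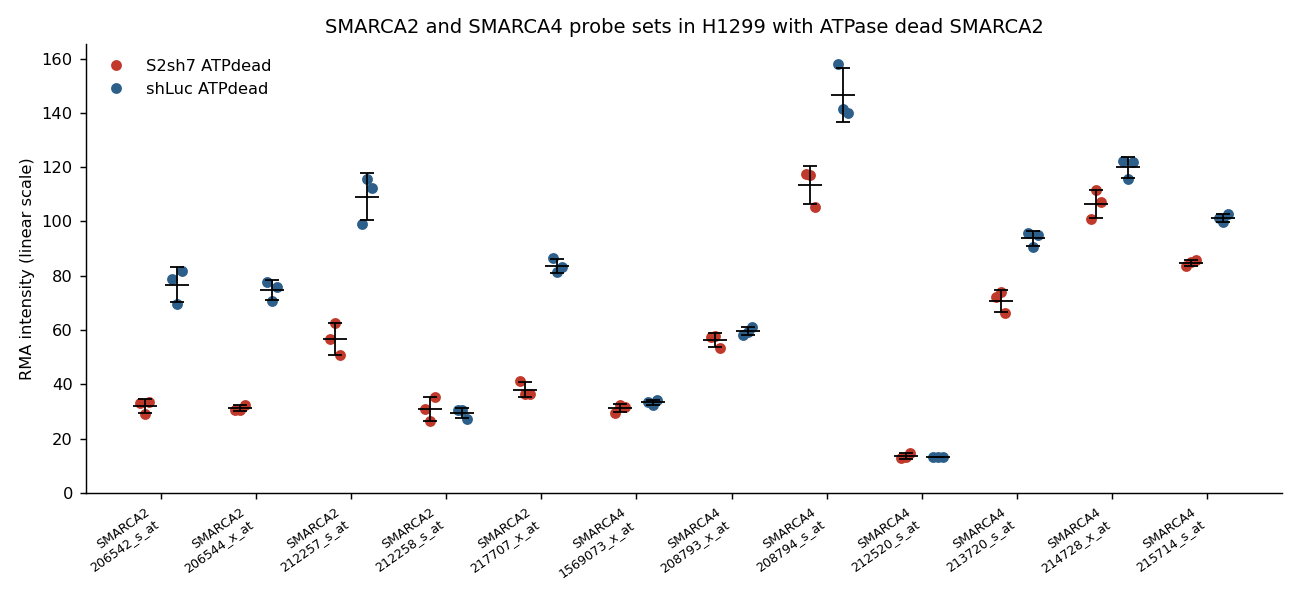
RMA intensity (linear scale) of each tested SMARCA2 and SMARCA4 probe set in the 3 S2sh7 and 3 shLuc arrays with ATPase dead SMARCA2; black bars are the mean ± SD. S2sh7 lies below shLuc in 4 of the 5 SMARCA2 probe sets, without overlap, and 212258_s_at overlaps.

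With ATPase dead SMARCA2 in the cells, the knockdown still changed 4175 genes (28.4% of those tested), of which 2424 (16.5%) were higher and 1751 (11.9%) lower with S2sh7. Most changes were small. At least 2-fold changes were seen in 12 genes that rose and 40 that fell, and the median over all genes was 0.02. The 3 S2sh7 and 3 shLuc values did not overlap for 6023 genes (41%). Between the same hairpins, 4359 genes were called with GFP, 3895 with WT and 3486 with BRD. A count of this size was thus not particular to the ATPase dead cDNA.

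The 12 genes with the largest rises encode mostly secreted proteins and regulators of transcription or signalling. SPP1, which encodes osteopontin, a secreted phosphoprotein that binds integrins and CD44, read 1967, 1915 and 1936 with S2sh7 and 261, 261 and 264 with shLuc. The arrays of each hairpin lay close together and far from the other group, and the rise was 7.41-fold (log2 2.89, 95% interval 2.81 to 2.97, adjusted p = 1.07e-20), although the other tested SPP1 probe set gave 1.73. CRH, corticotropin-releasing hormone, read 367, 338 and 332 with S2sh7 and 58.0, 51.2 and 57.5 with shLuc, a 6.23-fold rise (log2 2.64, SE 0.067, adjusted p = 7.39e-16), with the other tested CRH probe set at only 1.05. LOX, the lysyl oxidase that cross-links collagen and elastin, read 611, 612 and 589 with S2sh7 and 231, 220 and 238 with shLuc. Its rise was 2.63-fold (log2 1.39, SE 0.056, adjusted p = 6.27e-13), and all 3 tested LOX probe sets rose, by 1.39 to 1.59.

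EOMES, a T-box transcription factor of early mesoderm and T cells, read 96.3, 85.1 and 90.4 with S2sh7 and 33.2, 33.2 and 38.6 with shLuc. The shLuc values sat just above log2 5, the level used here as the floor for testing, and the rise was 2.59-fold (log2 1.37, SE 0.112, adjusted p = 1.56e-08). DKK1, a secreted antagonist of WNT signalling, read 794, 732 and 749 with S2sh7 and 303, 297 and 299 with shLuc (log2 1.34, SE 0.040). DUSP10, a phosphatase of stress-activated MAP kinases, averaged 188 ± 3.32 with S2sh7 and 80.1 ± 2.07 with shLuc (log2 1.23). ID2, an inhibitor of basic helix-loop-helix factors, averaged 498 ± 8.09 with S2sh7 and 221 ± 0.619 with shLuc (log2 1.17). These 4 genes thus more than doubled, with no array of 1 hairpin reaching a value of the other. The other rises were APLP1, an amyloid precursor-like protein (1.09), the lipid carrier APOE (1.06), the vasodilator peptide ADM (1.03), the BMP ligand BMP6 (1.02) and SFT2D2 (1.00).

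The 12 largest falls were led by a stress factor and by interferon-stimulated genes. ATF3, a transcription factor induced by many stresses, read 73.7, 75.3 and 80.3 with S2sh7 and 334, 332 and 318 with shLuc. It was 4.29-fold lower (log2 -2.10, 95% interval -2.21 to -1.99, adjusted p = 8.33e-16), although 1 of its 3 tested probe sets gave only -0.08. OAS1, an oligoadenylate synthetase that switches on RNase L in virus-infected cells, read 8.6, 11.0 and 13.4 with S2sh7 and 44.9, 39.2 and 49.4 with shLuc. The S2sh7 values lay under log2 5, so the fall of -2.03 (SE 0.125, adjusted p = 2.79e-10) is a change down to that level, and the other tested probe set gave -1.25. IFI27, an interferon-induced mitochondrial protein, read 43.6, 42.5 and 43.1 with S2sh7 and 147, 157 and 152 with shLuc (log2 -1.82, SE 0.110). GBP1, an interferon-induced GTPase that attacks intracellular pathogens, read 29.5, 29.6 and 18.7 with S2sh7 and 76.2, 73.8 and 85.1 with shLuc. All 3 S2sh7 values were again under log2 5, and the fall was -1.62 (SE 0.127, adjusted p = 7.75e-09), with the 3 tested probe sets at -1.62 to -1.40.

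KLF4, a zinc finger factor of epithelial differentiation, read 171, 167 and 159 with S2sh7 and 504, 500 and 476 with shLuc (log2 -1.57, SE 0.050, adjusted p = 1.69e-14). MYO5B, a myosin motor that carries recycling vesicles, read 112, 106 and 92.7 with S2sh7 and 281, 315 and 292 with shLuc (log2 -1.52, SE 0.076), with its other tested probe set at -0.86. TGFBI, an extracellular matrix protein induced by TGF-beta, read 898, 898 and 933 with S2sh7 and 2349, 2335 and 2390 with shLuc (log2 -1.37, SE 0.033, adjusted p = 4.47e-16). In each of these 3 genes every S2sh7 array was far below the lowest shLuc array. EMP1, a membrane protein of epithelia, averaged 1081 ± 14.5 with S2sh7 and 2698 ± 57.8 with shLuc (log2 -1.32), and its 4 tested probe sets fell by 1.11 to 1.34 on the log2 scale. The remaining members of the 12 were the neuropeptide gene SPX (-1.38), the keratin KRT80 (-1.37), the protease inhibitor SERPINE2 (-1.34) and the matricellular protein SPARC (-1.34). SPX was under log2 5 with S2sh7, at a mean of 13.1, and its other tested probe set gave -0.37. SPARC was under log2 5 in both groups, at means of 12.0 with S2sh7 and 30.5 with shLuc, so the size of its fall is uncertain.

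**Figure D2:**
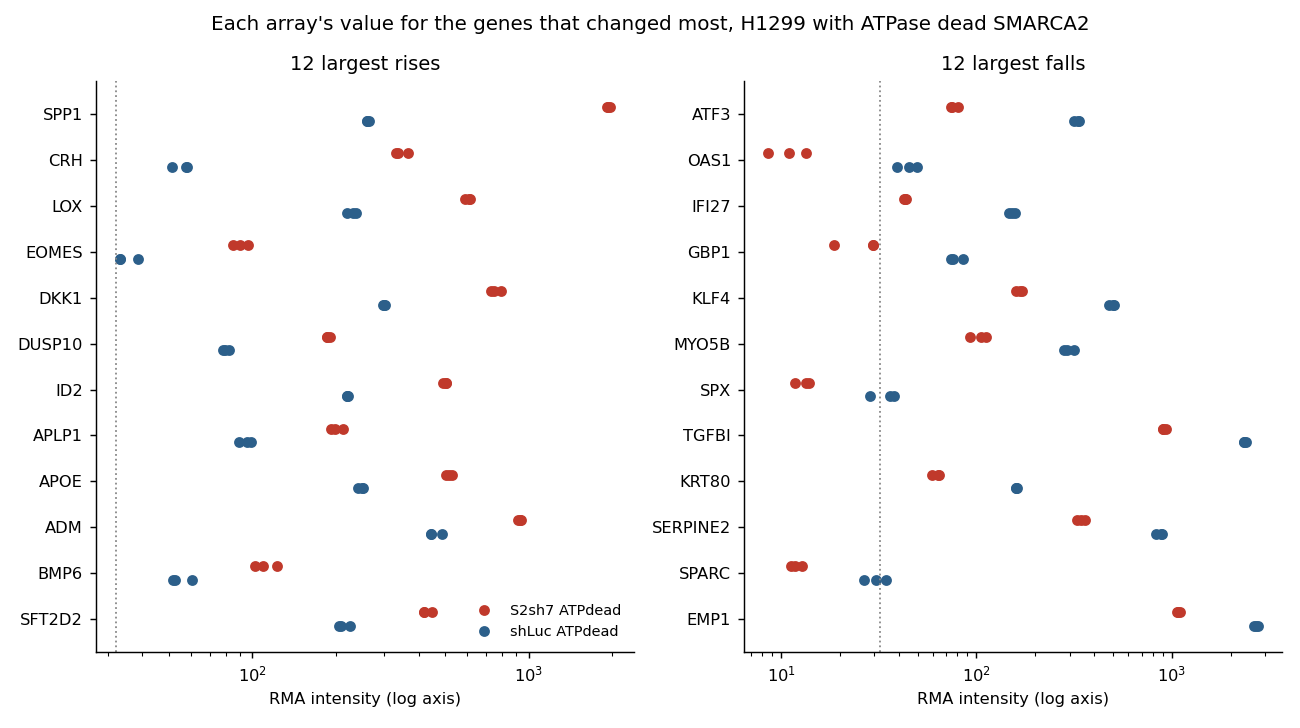
RMA intensity on a log axis in each of the 3 S2sh7 and 3 shLuc arrays with ATPase dead SMARCA2, for the 12 genes that rose most (left) and the 12 that fell most (right); the dotted line is log2 5. The arrays do not overlap for any of the 24 genes, which the choice of genes required, and OAS1, GBP1, SPX and SPARC lie left of the line with S2sh7.

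Interferon-stimulated genes fell as a group. These genes encode antiviral proteins and are switched on when interferon leads a complex that contains IRF9 to bind a short DNA element, the ISRE, in their promoters. Of 44 genes listed, 37 were tested, 32 fell and 5 (IFI35, MX2, OAS2, TRIM21 and GBP2) were not called, where 11.9% of all genes fell. Among those not called, MX2, OAS2 and GBP2 were under log2 5 in both groups. The median of the 37 was -0.61, against 0.02 over all genes. After OAS1, IFI27 and GBP1 came IFI44, which read 59.8 ± 7.99 with S2sh7 and 145 ± 6.60 with shLuc (-1.29). GBP3, another guanylate-binding GTPase, fell by -1.26, and IFI6, which blocks cell death and viral replication, by -1.20 (768 ± 2.13 with S2sh7 and 1770 ± 73.4 with shLuc). IFIT1, which binds foreign RNA ends, read 173 ± 9.09 with S2sh7 and 335 ± 15.3 with shLuc, and the ubiquitin-like ISG15 read 876 ± 7.77 with S2sh7 and 1634 ± 49.5 with shLuc. Those last genes were bright, so their falls of -0.95 and -0.90 were measured well above the floor.

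The ISRE was searched as GAAA, any 2 bases and GAAA again on both strands of 300-base windows around gene starts, because it is the element through which interferon acts on this list. Of the 32 interferon-stimulated genes that fell, 28 had a window in RefSeq (GRCh38.p14), and 21 of those (75%) held the motif. It was found in 3.65% of all 27305 windows and in 2.63% of the windows of genes tested. The share was 3.94% for all genes that fell and 1.82% for genes that rose. Since interferon acts on this list through the element, a high share was set by the choice of list. List members that did not fall were not searched, so the 75% does not tell which members fell. A match is a description of letters and not a measured binding site. Stretches of 4 of these promoters are printed with the motif in capitals, on the strand of the gene. They come from chr14:94110598-94110680 (plus strand) for IFI27, chr1:89065296-89065365 (minus) for GBP1, chr1:78649741-78649810 (plus) for IFI44 and chr1:27672246-27672378 (minus) for IFI6.
IFI27: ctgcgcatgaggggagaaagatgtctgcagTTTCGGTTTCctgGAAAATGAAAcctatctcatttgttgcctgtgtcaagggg
GBP1: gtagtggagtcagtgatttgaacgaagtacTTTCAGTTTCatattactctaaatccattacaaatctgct
IFI44: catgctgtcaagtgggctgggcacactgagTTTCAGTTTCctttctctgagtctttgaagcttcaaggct
IFI6: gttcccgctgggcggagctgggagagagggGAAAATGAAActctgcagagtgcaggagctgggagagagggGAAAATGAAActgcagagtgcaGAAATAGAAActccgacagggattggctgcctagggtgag
IFI6 held 3 matches and IFI27 held 2, whereas GBP1 and IFI44 each held 1. OAS1, the interferon-stimulated gene with the largest fall, was among the 7 windows without a match.

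The antigen presentation genes, many of which interferon also raises, fell too: 11 of 14 tested fell and 3 were not called, with a median of -0.36. HLA-B read 2440 ± 62.1 with S2sh7 and 3634 ± 53.8 with shLuc (-0.58), and HLA-C gave -0.52. The immunoproteasome subunits PSMB8 (-0.54) and PSMB9 (-0.49) and NLRC5, the transactivator of class I genes (-0.45, under log2 5 in both groups), fell as well. The signalling genes did not move one way: of 20 tested, 7 fell and 5 rose, where 11.9% and 16.5% of all genes did. IRF9, a DNA-binding part of that complex, fell most, to 131 ± 12.7 with S2sh7 against 235 ± 8.28 with shLuc (-0.85, adjusted p = 3.17e-08). The interferon regulatory factors IRF1 (-0.57) and IRF7 (-0.55), the DNA-sensing adaptor STING1 (-0.41) and STAT3 (-0.32) were lower, whereas IRF3, the factor that starts interferon production, was higher (0.35).

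Most genes of the integrated stress response fell as well. In this pathway several kinases phosphorylate eIF2-alpha, which favours translation of ATF4, a factor that switches on amino acid synthesis, transport and feedback genes. Of 29 genes tested 23 fell and 6 (ATF4, ATF5, PSAT1, PSPH, SLC7A5 and XPOT) were not called, with a median of -0.32. Among all genes 11.9% fell. The list median was much the same with GFP (-0.31), WT (-0.35) and BRD (-0.33). Beside ATF3, the mTORC1 inhibitor DDIT4 read 327 ± 28.2 with S2sh7 and 797 ± 3.02 with shLuc (-1.29, adjusted p = 1.17e-09). CHAC1, which degrades glutathione, gave -0.85, the pseudokinase TRIB3 -0.71, the pro-apoptotic factor DDIT3 -0.71 and the stress protein NUPR1 -0.64, to a mean under log2 5 with S2sh7. ATF4 itself is regulated mainly in translation, which arrays do not measure.

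The C/EBP-ATF response element, through which ATF4 acts, was searched as TGATGNAA on both strands. It was found in 6 of the 20 windows of stress response genes that fell (30%), against 3.67% of all windows and 2.32% of those of all genes that fell. The share was 1.94% for genes tested, and list members that did not fall were again not searched. The printed pair shows genes that fell and hold the element, with its letters in capitals, from chr1:212565186-212565253 (plus strand) for ATF3 and chr15:40953232-40953299 (plus) for CHAC1.
ATF3: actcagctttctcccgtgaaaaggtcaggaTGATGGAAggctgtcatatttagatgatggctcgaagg
CHAC1: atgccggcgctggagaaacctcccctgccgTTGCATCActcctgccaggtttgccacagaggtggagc
Genes of the neighbouring unfolded protein response, the endoplasmic reticulum chaperones, split evenly instead: 4 of 16 rose and 4 fell. Over all genes 16.5% rose and 11.9% fell. Among the 4 rises, the calls for DNAJB9 and HYOU1 were each lost under another setting and without some single arrays. XBP1, a factor of the unfolded protein response, fell to 199 ± 6.09 with S2sh7 against 294 ± 12.6 with shLuc (-0.56). HERPUD1, which acts in protein degradation at the endoplasmic reticulum, fell too (-0.39), but its other tested probe set gave 0.04 and was not called. CRELD2 rose by 0.24.

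Immediate early genes, the first targets of growth factor and stress kinases, fell more often than they rose. Of 21 tested, 11 were lower and 3 higher, where 11.9% and 16.5% of all genes were. Their median was -0.25, beside -0.33 with GFP, -0.31 with WT and -0.27 with BRD. After KLF4 the largest falls were IER3 (223 ± 11.3 with S2sh7 and 505 ± 18.9 with shLuc, -1.18) and KLF10 (-0.79), followed by EGR1 (-0.57), MAFF (-0.56) and FOSL1 (-0.56). An AP-1 motif, TGANTCA, was found in 1 of the 8 available windows of those that fell (12.5%), against 7.76% of all windows. The share was 6.18% for all genes that fell, 3.29% for genes that rose and 4.98% for genes tested. Feedback inhibitors of MAP kinase signalling went both ways, 5 up and 3 down of 15, beside 16.5% and 11.9% of all genes. DUSP6, which switches off ERK, read 1026 ± 41.6 with S2sh7 and 723 ± 8.62 with shLuc (0.50), and the Sprouty genes SPRY2 (0.45) and SPRY4 (0.35) were higher too. DUSP5, also a phosphatase of ERK, was lower (-0.51).

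Of 11 genes induced by NF-kB as its own feedback, 5 fell and 1 rose, where 11.9% and 16.5% of all genes did. TRAF1, a receptor adaptor, read 84.2 ± 7.28 with S2sh7 and 176 ± 8.38 with shLuc (-1.07), and the inhibitors NFKBIE (-0.68), TNFAIP3 (-0.66) and NFKBIA (-0.39) were lower, while the adhesion molecule ICAM1 was higher (0.33). Inflammatory secreted proteins gave 5 falls and 1 rise in 15. The cytokine IL32 fell by -1.01 and the chemokine CCL5 by -0.54, whereas CXCL2 read 64.4 ± 3.60 with S2sh7 and 43.5 ± 0.967 with shLuc (0.57).

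The genes of the extracellular matrix divided between a few strong rises and many falls. Among osteopontin's receptors, the integrin chain ITGAV was higher (0.22), whereas ITGA5 (-0.45), ITGB5 (-0.23) and the hyaluronan receptor CD44 (-0.17) were lower. Of 25 lysyl oxidases, collagens and collagen-modifying enzymes, 10 fell and 2 rose, where 11.9% and 16.5% of all genes did. LOXL2, a relative of LOX, read 198 ± 14.3 with S2sh7 and 401 ± 6.75 with shLuc (-1.02), so that the 2 enzymes moved in opposite directions. The collagens COL13A1 (-1.20), COL18A1 (-0.82), COL16A1 (-0.56, under log2 5 in both groups) and COL6A2 (-0.52) fell. Probe sets of these genes did not all move alike: 2 of 4 tested for LOXL2 were not called, and the 3 for COL13A1 gave -1.20 to -0.29. Of 24 matrix glycoproteins and proteases 14 fell and 3 rose, with a median of -0.29. The falls took in the glycoprotein FSTL1 (-0.88), thrombospondin THBS1 (271 ± 30.2 with S2sh7 and 457 ± 13.6 with shLuc, -0.76) and the protease inhibitor TIMP2 (-0.69). The collagenase MMP1 rose, to 124 ± 14.0 with S2sh7 against 61.7 ± 1.59 with shLuc (1.00, adjusted p = 6.26e-09).

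Targets of YAP and TAZ, the coactivators that respond to cell shape, gave 8 falls and 2 rises in 18. Over all genes 11.9% fell and 16.5% rose. AJUBA (-0.69), the receptor kinase AXL (4543 ± 106 with S2sh7 and 7055 ± 120 with shLuc, -0.64) and GADD45B (-0.62) fell, and CCN2, a matricellular growth factor, rose by 0.34. In the actin cytoskeleton list 8 of 17 fell and 1 rose, with the tropomyosins TPM1 (-0.71) and TPM4 (-0.65) and the calponin family members TAGLN2 (-0.54) and CNN2 (-0.39) among the falls. Epithelial and mesenchymal state genes gave 9 falls and 1 rise in 23. CDH1 and EPCAM, among those not called, were far under log2 5 on all 6 arrays. Both sides of that list were among the falls: the epithelial keratins KRT7 (-1.21), KRT8 (1076 ± 17.1 with S2sh7 and 1653 ± 29.7 with shLuc, -0.62) and KRT18 (-0.41), and the mesenchymal genes S100A4 (-0.95) and SNAI2 (-0.52, under log2 5 in both groups). For KRT7 only 1 of 3 tested probe sets was called, and the range was -1.21 to 0.02.

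Transcription factors of cell lineages gave 6 rises and 3 falls in 19. Over all genes 16.5% rose and 11.9% fell, and counts near those shares are no result about a list. Beside EOMES, the homeobox gene HLX was higher (0.51), and the cartilage and bone factors SOX9 (414 ± 7.25 with S2sh7 and 628 ± 11.9 with shLuc, -0.60) and RUNX2 (-0.55) were lower. In the BMP list, 3 of 12 rose and 1 fell. ID3 went up with ID2 but by less (0.31), and the inhibitory SMAD7 went down (83.5 ± 9.57 with S2sh7 and 142 ± 3.77 with shLuc, -0.77). Of 11 WNT antagonists and targets, 2 rose and 3 fell: DKK3, a divergent relative of DKK1, read 494 ± 8.32 with S2sh7 and 787 ± 3.29 with shLuc (-0.67), opposite to DKK1. Of 17 neuropeptide and neuronal genes 6 rose and 3 fell, with the microtubule protein MAP2 (219 ± 8.54 with S2sh7 and 118 ± 8.01 with shLuc, 0.89) and the granule protein VGF (0.31) beside CRH and ADM on the higher side and galanin, GAL (-0.61, under log2 5 with S2sh7), on the lower. In the cholesterol and lipid transport list 4 of 16 rose and 4 fell. The rises were led by APOE, INSIG1 (0.71), a regulator of sterol synthesis, and APOC1 (0.35), a neighbour of APOE in the genome.

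NRF2 targets gave 5 rises and 4 falls in 17, among them TXNRD1 (0.34) and ME1 (-0.39), where 16.5% and 11.9% of all genes rose and fell. Hypoxia and glycolysis genes gave 3 rises and 6 falls in 20, with the rises near the share of all genes. The angiogenic factor VEGFA (-0.52), pyruvate kinase PKM (-0.50) and the glucose transporter SLC2A1 (-0.50) fell while ADM, also in this list, rose. Of 25 mitosis genes 8 rose and 1 fell, and the same counts, 8 and 1, were found in 27 DNA replication genes, with medians of 0.05 in both. The largest of these were KIF20A and KIF23, motors of cell division (both 0.24), and the helicase subunit MCM6 (2893 ± 7.81 with S2sh7 and 2369 ± 54.5 with shLuc, 0.29). TOP2A, the mitosis gene that fell (-0.15), had its other tested probe set called higher. Its call was lost under some other settings and without some single arrays. The call for MKI67, which rose by 0.16, was lost with no filter and without some single arrays. Of 17 cyclins and inhibitors of their kinases 7 rose and 3 fell. Cyclin D1, CCND1, was lower (-0.34) and cyclin E1, CCNE1, higher (0.34).

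Among 25 SWI/SNF subunits other than the 2 motors, 6 rose and 3 fell, where 16.5% and 11.9% of all genes did. The calls for BCL7A, DPF1, PBRM1 and SMARCC2 among these 9 were each lost under several other settings or without single arrays. SMARCD3, an accessory subunit, read 79.3 ± 1.63 with S2sh7 and 51.1 ± 1.96 with shLuc (0.63, adjusted p = 3.29e-06), and BCL7C was at 0.27. Remodelers outside SWI/SNF gave 4 rises and 5 falls in 19, among them CHD2 (-0.34), CHD4 (-0.16) and CHD3 (0.27). Of 20 markers of blood, endothelium and fibroblasts, 10 passed the floor, and limma called 0 of these 10, with 0 at an unadjusted p under 0.05. Their summed intensity was 364 to 400 with S2sh7 and 384 to 391 with shLuc, and PTPRC, CDH5 and KDR were below the floor. Of 10 tested alveolar and airway genes only ABCA3, a lipid transporter of surfactant cells, was called (0.20), and SCGB1A1 and SFTPA1 did not pass the floor.

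**Figure D3:**
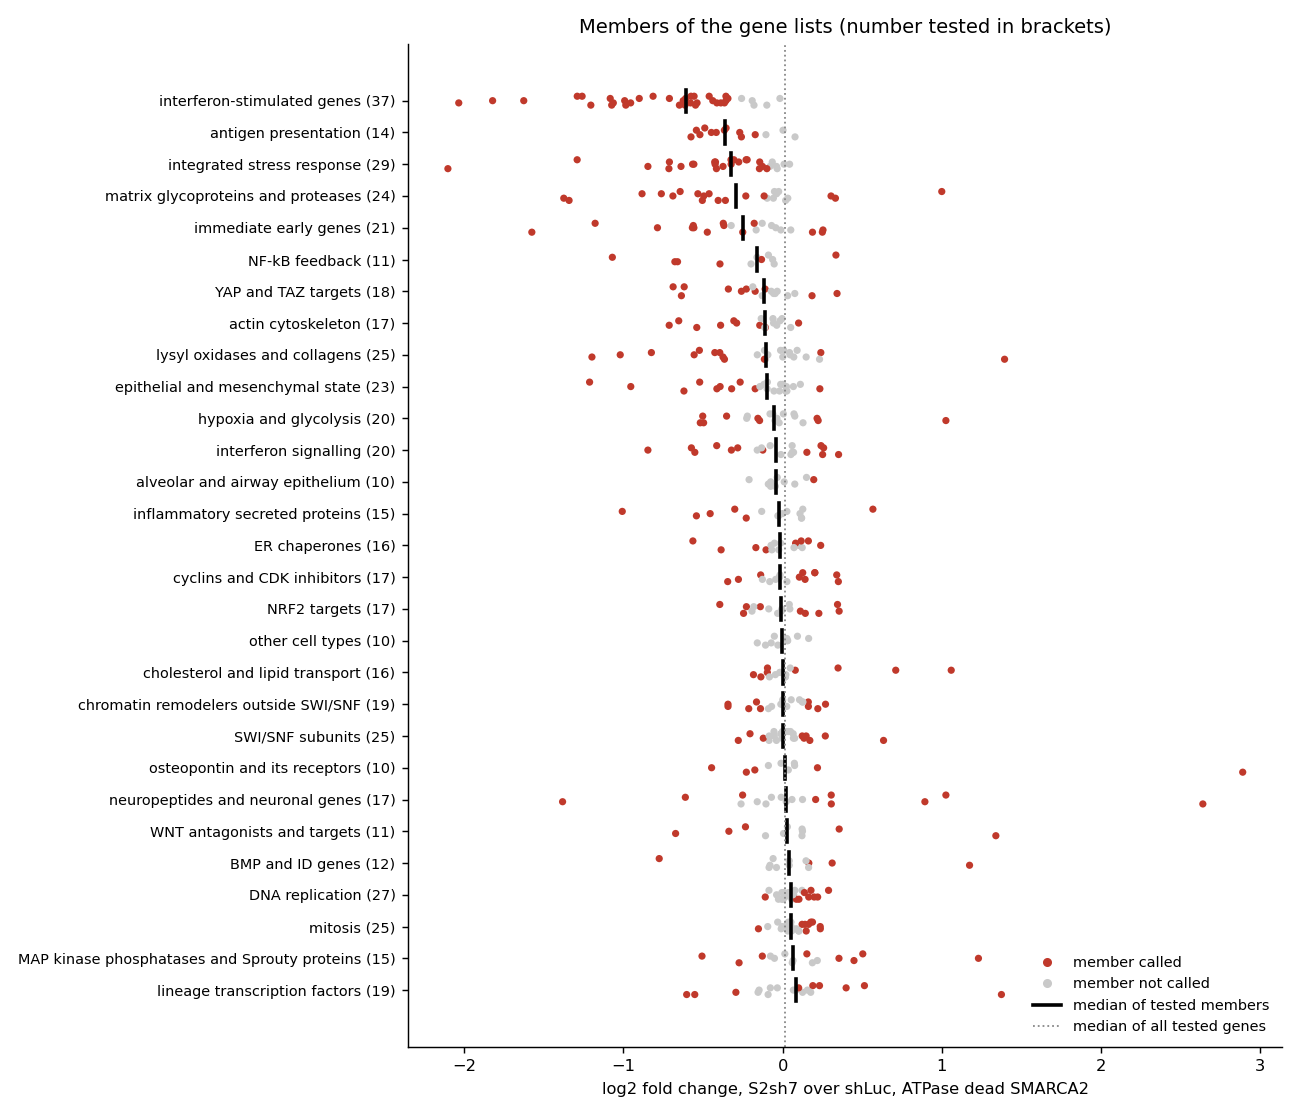
Log2 fold change, S2sh7 over shLuc with ATPase dead SMARCA2, of every tested member of 29 gene lists; red members were called, grey ones not, black bars are list medians and the dotted line is the median of all genes (0.02). The medians run from -0.61 for interferon-stimulated genes to 0.09 for lineage transcription factors.

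Set beside the same hairpins in cells with GFP and no SMARCA2 cDNA, the effects were of similar size. Across 14695 genes, which are not independent replicates, the log2 fold change with ATPase dead SMARCA2 correlated with that with GFP at r = 0.83, with that with WT at 0.81 and with that with BRD at 0.82. The slopes on the ATPase dead effect were 0.90, 0.74 and 0.75. Noise in the ATPase dead values lowers such slopes, so they do not measure relative size. At least 2-fold, 10 genes rose and 56 fell with GFP, 7 and 15 with WT and 4 and 21 with BRD. With ATPase dead SMARCA2 these counts were 12 and 40. All 8 groups shared 1 batch label and the same 2 hairpins. The difference of the hairpin effect, ATPase dead minus GFP, was called for 9 genes (0.0612%; 1643 at an unadjusted p under 0.05). On the positive side stood OASL (0.52), IFI6 (0.48), ZNF155 (0.47), EGR1 (0.37), SALL3 (0.32), CLASRP (0.27) and FNBP4 (0.26), and on the negative side SPP1 (-0.48) and the bicarbonate transporter SLC4A7 (-0.32).

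IFI6 fell with both cDNAs but by less with ATPase dead SMARCA2 (-1.20) than with GFP (-1.69), where it read 599 ± 12.8 with S2sh7 and 1927 ± 39.4 with shLuc (difference 0.48, SE 0.059, adjusted p = 9.92e-04). SPP1 rose by 2.89 with ATPase dead SMARCA2 and by 3.37 with GFP, where it read 2690 ± 49.0 with S2sh7 and 260 ± 0.968 with shLuc (difference adjusted p = 4.42e-04). That difference was no longer called when the 2 SPP1 probe sets were averaged (adjusted p = 0.356), and the same setting ended the calls for OASL, ZNF155, SALL3, FNBP4 and SLC4A7 (adjusted p = 0.0719 to 0.262). EGR1, whose product is an early growth response factor, fell by -0.57 and -0.94 with these cDNAs (difference adjusted p = 1.83e-03). Leaving out 1 array moved the count of 9 to 4 without replicate 1 of shLuc GFP, replicate 1 of shLuc ATPase dead or replicate 2 of S2sh7 ATPase dead. It was 5 without replicate 3 of shLuc GFP, replicate 2 or 3 of shLuc ATPase dead, or replicate 1 or 3 of S2sh7 GFP. IFI6, EGR1, CLASRP and SPP1 were called with any 1 of the 12 arrays left out, and the other 5 were not. EGR1 and CLASRP lost their call when only these 12 arrays were fitted, and IFI6 alone kept it under every setting tried.

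The contrast with wild-type SMARCA2 had more called genes. The hairpin effect differed between ATPase dead and WT for 90 genes (0.612%), with 31 positive (0.211%) and 59 negative (0.401%) differences. At an unadjusted p under 0.05 there were 1263 genes, fewer than the 1643 against GFP and the 1295 against BRD. The larger count against WT thus holds for adjusted calls only. Interferon-stimulated genes held 16 of the 59 negative differences, out of 37 tested. Their median hairpin effect was -0.61 with ATPase dead SMARCA2, -0.70 with GFP, -0.22 with WT and -0.53 with BRD. OAS1 fell by -2.03 with ATPase dead SMARCA2 and by -0.59 with WT, where it read 19.8 ± 1.52 with S2sh7 and 29.8 ± 2.10 with shLuc, under log2 5 in both (difference -1.44, SE 0.177, adjusted p = 1.60e-04). With 3 of the 4 group means under log2 5, the size of the OAS1 difference is uncertain. IFI6 read 1207 ± 54.5 with S2sh7 and WT and 1394 ± 16.6 with shLuc and WT, so its effect of -0.21 there was far from the -1.20 with ATPase dead SMARCA2 (difference -0.996, SE 0.059, adjusted p = 1.27e-08). ISG15 followed the same pattern, with -0.90 and -0.21 (difference adjusted p = 7.76e-05), and so did IFI27 (-1.82 and -0.83), IFIT1 (-0.95 and -0.27) and IRF9 (-0.85 and -0.09). The shLuc arrays differed as well, in a comparison that was not tested: ISG15 averaged 1634 with shLuc and ATPase dead SMARCA2 and 1232 with shLuc and WT, and IFIT1 335 with shLuc and ATPase dead SMARCA2 and 217 with shLuc and WT.

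**Figure D4:**
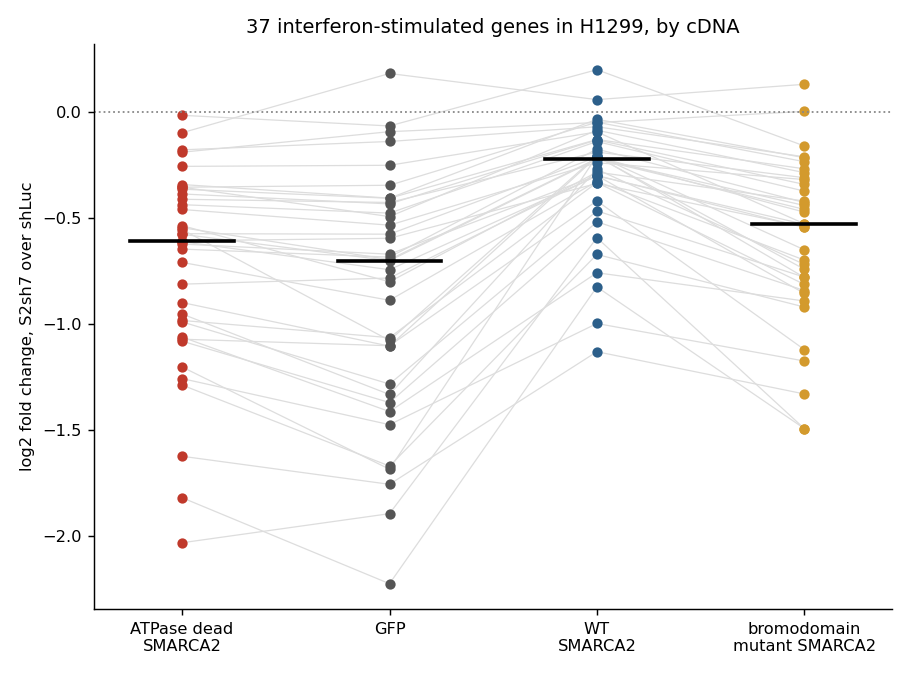
Log2 fold change, S2sh7 over shLuc, of 37 interferon-stimulated genes in H1299 with each of the 4 cDNAs; grey lines join a gene and black bars are medians. The medians are -0.61 with ATPase dead SMARCA2, -0.70 with GFP, -0.22 with WT and -0.53 with BRD.

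Other genes whose fall was larger with ATPase dead SMARCA2 than with WT were the desmosomal linker PPL (-0.94 and -0.20) and SERPINE2, which read 343 ± 15.5 with S2sh7 and ATPase dead SMARCA2 and 527 ± 7.73 with S2sh7 and WT (difference -0.69, SE 0.062, adjusted p = 5.05e-06). The call for SERPINE2 was lost when all of its probe sets were averaged (adjusted p = 0.632). That for PPL was lost without replicate 2 of shLuc WT, replicate 1 or 3 of shLuc ATPase dead, replicate 1 of S2sh7 WT or replicate 2 of S2sh7 ATPase dead. On the positive side LOX rose by 1.39 with ATPase dead SMARCA2 and by 0.82 with WT, where it read 358 ± 21.0 with S2sh7 and 202 ± 12.1 with shLuc (difference 0.57, SE 0.080, adjusted p = 5.69e-04). DKK1 (1.34 and 0.84), CRH (2.64 and 2.10) and the matricellular CCN2 (0.34 and -0.18) differed in the same direction. So did CXCL2 (0.57 and -0.03), the decoy receptor TNFRSF10D (0.44 and -0.09), NAV3 (0.24 and -0.24) and EGR1 (-0.57 and -1.06). Averaging all probe sets of a gene ended the call of the difference for CRH (adjusted p = 0.12), CXCL2 (0.208) and TNFRSF10D (0.287), whose 2 probe sets gave hairpin effects of -0.22 and 0.44. Fitting only the 12 arrays compared ended it for CRH, CXCL2 and PPL. SPP1 (2.89 and 3.03, difference adjusted p = 0.368), EOMES (1.37 and 0.96, 0.405) and GBP1 (-1.62 and -1.13, 0.351) were not called in this contrast. The SMARCA2 probe set that the cDNAs raised read 56.7 with S2sh7 and ATPase dead SMARCA2 and 76.7 with S2sh7 and WT, and 109 with shLuc and ATPase dead SMARCA2 and 121 with shLuc and WT. The part of this level in the differences was not tested.

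**Figure D5:**
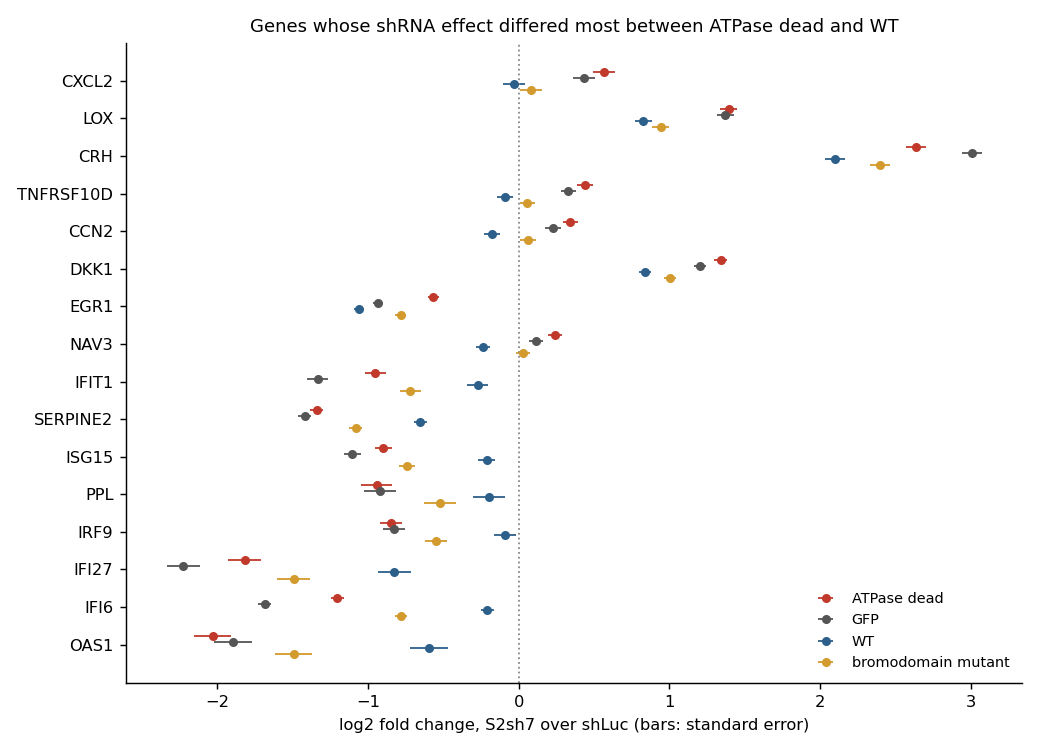
Log2 fold change, S2sh7 over shLuc, with each of the 4 cDNAs for the 16 genes named for the difference ATPase dead minus WT; bars are standard errors. LOX, CRH and DKK1 rose with every cDNA, and IFI6 was at -1.20 with ATPase dead SMARCA2 and -0.21 with WT.

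Against the bromodomain mutant the hairpin effect differed for 9 genes (0.0612%; 1295 at an unadjusted p under 0.05). EMP1 fell by -1.32 with ATPase dead SMARCA2 and by -0.89 with BRD (difference -0.43, SE 0.051, adjusted p = 1.09e-03), and IFI6 by -1.20 and -0.78 (difference -0.42, adjusted p = 6.66e-03). ATF3 (-0.43) and TGFBI (-0.30) made up the negative side. LOX (0.45), DNAJC4 (0.39), DKK1 (0.34), CLDN1 (0.33) and APOE (0.30) made up the positive side. EMP1 and IFI6 were called with any 1 of the 12 arrays left out, and the other 7 were not. The count was 2 without replicate 3 of shLuc BRD or replicate 1 or 3 of shLuc ATPase dead, 3 without replicate 1 of shLuc BRD, replicate 2 of shLuc ATPase dead or replicate 1 of S2sh7 ATPase dead, and 5 without replicate 1 or 2 of S2sh7 BRD or replicate 2 of S2sh7 ATPase dead. With the mean of all probe sets the calls ended for EMP1 (adjusted p = 0.399), LOX (0.12), DNAJC4 (0.566) and ATF3 (0.614), and that for IFI6 ended when only the 12 arrays compared were fitted (0.123).

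In A549 the same hairpins were measured with ATPase dead SMARCA4, with 1 array per group, so the values have no replicate check and no test. A549 is known to lack functional SMARCA4 as well, and SMARCA2 probe set 217707_x_at read 49.6 with S2sh7 and 342 with shLuc there. Of the 40 genes that fell at least 2-fold in H1299 with ATPase dead SMARCA2, 85% were also lower with S2sh7 in A549, against 49.5% of all genes, and 37.5% were at least 2-fold lower, against 4.12% of all genes. Over all 1751 genes called lower these shares were only 54.1% and 8.85%. Of the 12 that rose at least 2-fold, 8 (66.7%) were higher in A549, against 50.4% of all genes, and 2 at least 2-fold higher, against 3.08% of all genes. Over all 2424 genes called higher the shares were 65% and 5.98%. EOMES read 445 with S2sh7 and 56.8 with shLuc in A549 (log2 difference 2.97). TGFBI read 1634 with S2sh7 and 7189 with shLuc (-2.14), EMP1 18.7 with S2sh7 and 141 with shLuc (-2.92) and MYO5B 122 with S2sh7 and 446 with shLuc (-1.87). Other genes of H1299 were at nearly the same level with both hairpins in A549: SPP1 read 5341 with S2sh7 and 6238 with shLuc, OAS1 228 with S2sh7 and 219 with shLuc, and IFI27 42.3 with S2sh7 and 44.0 with shLuc. LOX was dim in A549, at 8.46 with S2sh7 and 6.44 with shLuc, as was GBP1, at 8.46 with S2sh7 and 13.5 with shLuc. KLF4 was at 382 with S2sh7 and 228 with shLuc in A549, opposite in direction to H1299. The interferon-stimulated genes had a median difference of -0.54 in A549, the stress response genes -0.02 and the immediate early genes -0.08. Lists with negative medians in H1299 had positive ones in A549 for antigen presentation (0.24), YAP and TAZ targets (0.52) and NF-kB feedback (0.66). Interferon signalling (0.27), the actin cytoskeleton (0.14) and cyclins (0.08) did the same. However, the H1299 medians of interferon signalling (-0.04) and cyclins (-0.02) were near 0, and that of cyclins changed sign in 4 of 15 alternatives. The A549 median over all genes was 0.0025.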

How the data were processed

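RNA of 32 cell line samples was hybridised to Affymetrix HG-U133 Plus 2.0 arrays after labelling with a kit that primes at the 3' end. The values the authors deposited are RMA intensity per probe set, on a linear scale, with RMA and limma named in the submitters' processing notes; their versions, the background and normalization settings and a genome build are not given in the sources used here. RMA forces similar distributions on arrays processed together, so a change shared by most genes would not show. Log2 was taken with no pseudocount.

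The platform annotation gave 1 gene symbol for 41097 of 54675 probe sets, more than 1 for 1801 and none for 11777. Names, promoters and chromosomes came from RefSeq (GRCh38.p14), which did not list the symbol of 54 probe sets. The 19775 genes were each read from the probe set brightest on average over the 32 arrays, and the 14695 (74.3%) that passed log2 5 on 3 or more arrays entered the test. Of 180 named genes, 97 had more than 1 tested probe set, and for 2 of them (BCL7A and TOP2A) probe sets were called in opposite directions.

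The 24 H1299 arrays were fitted in limma 3.58.1 (R 4.3.3; tables read by data.table, version 1.17.8) with 8 group means and default eBayes, calling a gene below 0.05 after adjustment. The fit gave the S2sh7 over shLuc effect per cDNA and the difference of that effect, ATPase dead minus GFP, WT or BRD. Residual degrees of freedom were 16. The fit was tested on simulated data. Samples were grouped by the labels. Same-numbered ATPase dead arrays deviated from their group means with correlations of 0.057, 0.0087 and -0.0022, so the numbers do not pair the samples. Array quality was alike: the ACTB control, log2 at the 3' end minus that at the 5' end, gave 0.230 to 0.303 with S2sh7 and 0.224 to 0.272 with shLuc.

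Named genes were SMARCA2, SMARCA4, SPP1, LOX, EOMES, OAS1 and GBP1, the 12 largest rises and falls among called genes without overlap, up to 6 called members of each of 29 lists by size of change, and up to 8 genes per direction called for each difference. Members of lists that were not called are named only to account for the list. The comparison, lists and rules were chosen with earlier results of these data known. Promoter windows run from 250 bases before to 50 after each RefSeq gene start. Other settings tried were: averaging every probe set of a gene; no filter, or log2 over 6; a second quantile normalization; centring arrays on their medians; trended, robust eBayes; weighting arrays; fitting the compared arrays alone; a replicate block; and dropping 1 array at a time. Plots used matplotlib 3.10.9 under Python 3.11.15.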

Additional observations from a re-analysis of the deposited data

Results flagged for a closer look

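All differences are of the hairpin effect, S2sh7 over shLuc on the log2 scale, between ATPase dead SMARCA2 and another cDNA, each called by limma over all genes. Against GFP the difference was 0.52 for OASL, 0.48 for IFI6, 0.47 for ZNF155, 0.37 for EGR1, 0.32 for SALL3, 0.27 for CLASRP, 0.26 for FNBP4, -0.48 for SPP1 and -0.32 for SLC4A7.

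Against WT it was 0.60 for CXCL2, 0.57 for LOX, 0.54 for CRH, 0.53 for TNFRSF10D, 0.52 for CCN2, 0.50 for DKK1, 0.49 for EGR1 and 0.48 for NAV3. On the other side it was -1.44 for OAS1 (3 of its 4 group means were under log2 5, so the size is uncertain), -0.996 for IFI6, -0.99 for IFI27, -0.76 for IRF9, -0.74 for PPL, -0.69 for ISG15, -0.69 for SERPINE2 and -0.68 for IFIT1.

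Against the bromodomain mutant it was 0.45 for LOX, 0.39 for DNAJC4, 0.34 for DKK1, 0.33 for CLDN1, 0.30 for APOE, -0.43 for EMP1, -0.43 for ATF3, -0.42 for IFI6 and -0.30 for TGFBI. IFI6 was named in all 3 contrasts, above 0 against GFP and below 0 against WT and the bromodomain mutant.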

How the results depend on the processing

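The count of 4175 genes called with ATPase dead SMARCA2 lay between 3169 (only the arrays compared) and 4571 (array weights) under the alternatives, and between 3433 and 3750 without 1 array. Centring the arrays gave 2434 higher and 1459 lower genes. Counts of differences moved more, and the cause was not tested. Against GFP the count of 9 was 3 with the mean of all probe sets, 5 with no filter or centred arrays, 50 with trend and robust, 2 with only the arrays compared and 4 to 12 without 1 array. Against WT the count of 90 was 58 with centred arrays, 185 with trend and robust, 49 with only the arrays compared and 60 to 95 without 1 array. Against the bromodomain mutant the count of 9 was 3 with no filter, 17 with log2 over 6, 15 with repeated quantile normalization, 4 with centred arrays, 49 with trend and robust, 35 with array weights, 1 with only the arrays compared and 2 to 8 without 1 array. The replicate block gave 4038 genes called for the hairpin effect, and 5, 82 and 6 for the differences against GFP, WT and the bromodomain mutant. The replicate numbers do not pair the samples. Of the 177 named genes called for the hairpin effect, 176 kept the call under the block, 159 of 173 with the mean of all probe sets, 167 with only the arrays compared, 170 with no filter or with centred arrays, and 166 to 171 without 1 array. Of 29 list medians, 15 moved by more than the spread between arrays with the mean of all probe sets, 6 with no filter and 7 with log2 over 6. Over all settings and arrays left out, the median of interferon-stimulated genes stayed between -0.64 and -0.57, of stress response genes between -0.33 and -0.23, of antigen presentation between -0.38 and -0.28, and of lineage factors between 0.06 and 0.10. List medians near 0 changed sign in some of 15 alternatives: cholesterol (6), osteopontin (5), other cell types (5), cyclins (4), remodelers outside SWI/SNF (4) and alveolar genes (4). So did those of chaperones (3), NRF2 targets (2) and neuronal genes (2). Reversals among named genes were SMARCC2 with the mean of probe sets (-0.0058) and FNBP4, which was not called for the hairpin effect. FNBP4 changed sign with centred arrays (0.0054) and without some single arrays (-0.022 to 0.0083 over the 6 left out in turn). Genes under log2 5 in a group (OAS1, GBP1, SPX, SPARC, NLRC5, NUPR1, COL16A1, SNAI2 and GAL among those named) are limited by signal over background.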

Other observations

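Gene families outside the lists were counted after their values had been seen, so the counts are descriptions. Of 412 zinc finger genes named ZNF, 16.3% fell and 8.98% rose, where 11.9% and 16.5% of all genes did, with ZNF568 (-1.05) and ZNF697 (-0.86) lowest. Clustered histone genes split: H2BC12 (0.84) was the highest of 32 and the linker histone H1-4 (-0.73) the lowest. Array probes for histones can be shared between near-identical copies. Of 17 serpins, the protease inhibitor family, 5 fell and 1 rose, with SERPINA1 at -1.28 beside SERPINE2. Of 7 small nucleolar host genes, 4 fell, and SNHG33 was at -0.75. Of 36 genes with proteasome subunit symbols, 1 antisense gene included, 5 rose and 3 fell. The catalytic subunit PSMB5 (0.53) was highest, and PSMB8 (-0.54), which takes its place in the immunoproteasome, was lowest. On chromosome 19, 19.6% of 1081 tested genes were higher and 9.25% lower with S2sh7.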
